A study of Mus musculus with 3 samples.

Results

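The Polycomb group genes described here are 9 genes, 5 of Polycomb repressive complex 2 (PRC2: Ezh2, Ezh1, Eed, Suz12 and Jarid2) and 4 of Polycomb repressive complex 1 (PRC1: Rnf2, Bmi1, Cbx2 and Cbx7). They are taken by gene name, with no limit on their values, and were found as 9 loci among the 48626 loci of the deposited table. The samples were heart ventricles of C57BL/6 mice of the embryonic stages E10.5 and E13.5 and of 8-week animals (Adult), all without genetic change or treatment as far as the labels say. Total RNA of each stage gave 1 stranded paired-end library, the number of animals behind each library is not given in the sources used here, so the differences below carry neither an error nor a p-value.

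PRC2 places methyl groups on lysine 27 of histone H3 (H3K27), a mark of silenced genes. Its catalytic subunit is either Ezh2 or Ezh1, Eed binds the methylated lysine, Suz12 holds the core together, and Jarid2 is an accessory subunit that helps the complex to find its sites. PRC1 attaches ubiquitin to histone H2A through the RING ligase Rnf2 (also called Ring1b) or its paralog Ring1. Rnf2 pairs with 1 PCGF protein such as Bmi1, and in canonical PRC1 a CBX protein such as Cbx2 or Cbx7 binds the H3K27 mark. Ezh2 is known as the form of dividing cells and Ezh1 as the form retained in non-dividing cells, and loss of Ezh2 in the embryonic mouse heart disturbs its development.

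The levels are FPKM values (sequenced fragments scaled to the length of the transcript and to the size of the library), which are scaled per length so that genes can be set beside each other. At E13.5 the values still varied with transcript length against the other libraries, as given below. Ratios between genes of unlike length carry this limit at E13.5. A change was the difference of log2(FPKM + 1) between libraries, where 1 on this scale is about 2-fold for well expressed genes and less than the true fold for low genes. A gene was called higher or lower when this difference was at least 1 in size. Of 20117 mRNA loci, 12569 reached 1 FPKM in at least 1 library and served as background, and all 9 members were among them.

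The promoters of the catalytic pair are shown because their levels went in opposite directions, that of Suz12 because it shares a motif with Ezh2, and that of Bmi1 because it is a member with a higher adult level. Each runs 5′ to 3′ on the gene's strand, with 250 bases before the RefSeq start site and 20 after it (GRCm38.p6). Capitals mark the E2F words searched on both strands.
Ezh2 (chr6:47595011-47595280, minus strand): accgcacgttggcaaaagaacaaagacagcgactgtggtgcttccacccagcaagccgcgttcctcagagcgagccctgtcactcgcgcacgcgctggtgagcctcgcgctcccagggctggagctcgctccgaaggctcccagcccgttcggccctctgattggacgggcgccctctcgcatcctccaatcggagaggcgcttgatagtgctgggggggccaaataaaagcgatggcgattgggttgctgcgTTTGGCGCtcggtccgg
Ezh1 (chr11:101226444-101226713, minus strand): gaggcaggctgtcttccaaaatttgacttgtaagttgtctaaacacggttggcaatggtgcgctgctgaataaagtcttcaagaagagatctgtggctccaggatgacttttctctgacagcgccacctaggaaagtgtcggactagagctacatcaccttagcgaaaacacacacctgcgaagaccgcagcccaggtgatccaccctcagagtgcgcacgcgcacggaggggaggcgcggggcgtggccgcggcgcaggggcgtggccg
Suz12 (chr11:79992856-79993125, plus strand): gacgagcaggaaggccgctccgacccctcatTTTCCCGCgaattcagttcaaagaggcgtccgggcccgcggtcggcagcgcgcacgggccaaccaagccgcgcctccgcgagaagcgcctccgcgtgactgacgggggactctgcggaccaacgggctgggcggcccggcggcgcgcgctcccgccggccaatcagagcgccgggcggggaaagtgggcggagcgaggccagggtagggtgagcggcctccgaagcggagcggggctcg
Bmi1 (chr2:18676768-18677037, plus strand): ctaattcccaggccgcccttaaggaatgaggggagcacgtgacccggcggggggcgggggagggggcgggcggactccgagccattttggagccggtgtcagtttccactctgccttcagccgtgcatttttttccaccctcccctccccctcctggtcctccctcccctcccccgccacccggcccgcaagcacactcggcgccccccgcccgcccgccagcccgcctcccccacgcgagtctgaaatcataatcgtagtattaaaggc

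The E2F words, which follow the site known from genes of DNA replication, were TTTGGCGC, TTTGCCGC, TTTCGCGC and TTTCCCGC. In the 300 bases from 250 before to 50 after the start, they were found for 2 of the 8 members with a promoter in the RefSeq table. Ezh2 held TTTGGCGC from base 4 of the transcript, and Suz12 held TTTCCCGC starting 219 bases upstream. Among 32851 promoters of this table, 744 (2.26%) held such a word. These promoters are not alike in base composition, since the median number of CG pairs was 24 in the members' promoters and 7 in all, and in the proliferation list, with a median of 25, the word was found in 2 of 10. The CCAAT word was found for 5 of the 8 genes and in 37.4% of all promoters, and Ezh2 held it 3 times. The cell cycle word TTTGAA was found for Eed, Suz12 and Cbx7 and in 17.9% of all promoters. The NRF1 word and the ETS word CCGGAAG were in none of the 8, against 0.971% and 8.86% of all promoters. The words could overlap each other, and a match is only a match of letters in this window. The start in the RefSeq table lay 168 bp from that of the files' RefSeq transcript for Rnf2, 214 bp for Eed and 13 bp for Ezh1.

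Ezh2 (chromosome 6, 47529563 to 47595030, minus strand) had 10 assembled transcripts of up to 21 exons. Its levels were 25.7 FPKM (E10.5), 20.1 FPKM (E13.5) and 4.31 FPKM (Adult). Both embryonic libraries were thus well above the adult one, and the adult level was 16.8% of that at E10.5. On the log2 scale the change was -0.34 from E10.5 to E13.5, -1.99 from E13.5 to Adult and -2.33 from E10.5 to Adult. Of the 12569 loci, 5.82% fell further than Ezh2 from E10.5 to Adult.

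Ezh1 (chromosome 11, 101191054 to 101226450, minus strand), the paralog with the weaker methyltransferase, took the opposite course. It was at 4.43, 4.09 and 11.5 FPKM in E10.5, E13.5 and Adult. The embryonic values lay close together and the adult value was 2.58-fold that of E10.5. The change was -0.09 between the embryonic libraries and 1.197 from E10.5 to Adult.

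Ezh2 exceeded Ezh1 by a ratio of 5.79 at E10.5 and of 4.90 at E13.5, while the adult ratio was 0.376. Ezh2 was the more abundant transcript in both embryonic libraries and Ezh1 in the adult one. Between E10.5 and E13.5 the ratio changed 1.18-fold, and from E13.5 to Adult it fell 13.03-fold. A ratio inside a library does not depend on how that library was scaled. Of the summed FPKM of both genes, Ezh1 made up 14.7% (E10.5), 16.9% (E13.5) and 72.7% (Adult). The sum itself was 30.1, 24.2 and 15.8 FPKM, a 1.91-fold difference between E10.5 and Adult.

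The other core subunits, which both catalytic forms share, are known to be needed for the stability of PRC2. Suz12 (chromosome 11, 79993106 to 80034959, plus strand) was at 30.8, 15.5 and 8.52 FPKM, the highest value being that of E10.5. Its change was -0.95 from E10.5 to E13.5, -0.80 from E13.5 to Adult and -1.74 over both steps. Suz12 was the member with the largest difference between the embryonic libraries. Eed (chromosome 7, 89952759 to 89981190, minus strand) was at 13.2, 19.9 and 9.16 FPKM, highest at E13.5. From E10.5 to Adult its change was -0.49, which is -0.09 from the median of all loci, and the level was 69.2% of that at E10.5. Thus Suz12 was called lower from E10.5 to Adult and Eed was not.

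These subunits did not keep 1 proportion. The ratio of Eed to Suz12 was 0.430 (E10.5), 1.28 (E13.5) and 1.08 (Adult). The summed Ezh1 and Ezh2 level was 0.977, 1.56 and 1.85 times that of Suz12 in the same order, and 2.27, 1.22 and 1.72 times that of Eed.

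Jarid2 (chromosome 13, 44729680 to 44926641, plus strand), which is known from heart defects in its mouse mutants, was at 17.6, 9.57 and 13.497 FPKM. The lowest value was that of E13.5, and the adult value was 76.7% of that at E10.5. Its changes were -0.82, 0.46 and -0.36 for E10.5 to E13.5, E13.5 to Adult and E10.5 to Adult, none of them past 1. Relative to the median of all loci the last was 0.04. The ratio of Jarid2 to Suz12 was 0.571, 0.617 and 1.58.

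**Figure D1:**
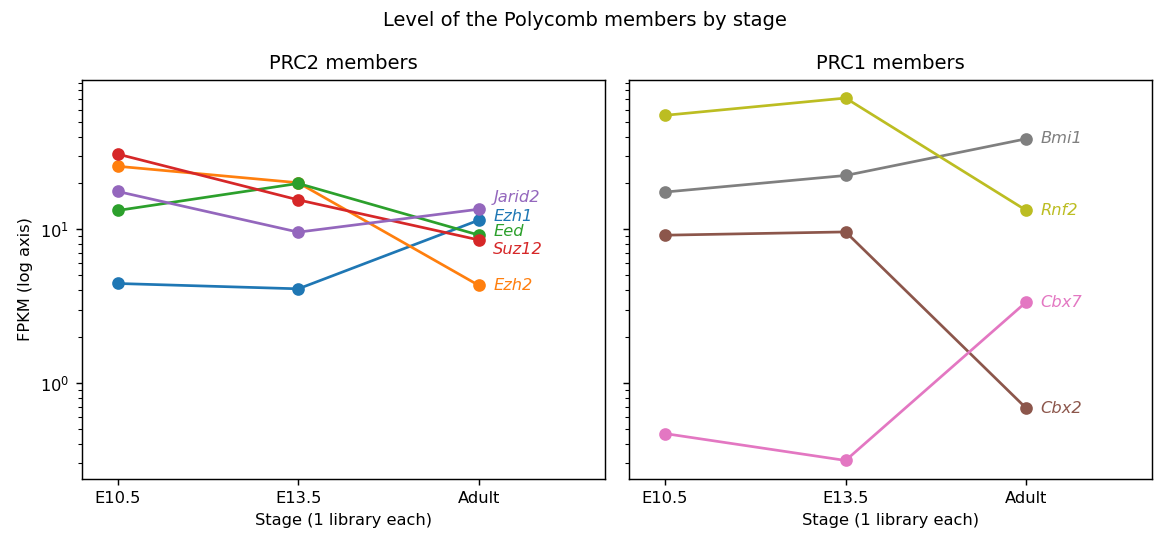
Level of each member in FPKM (log axis) in the 3 libraries, with 1 point per library and lines joining the stages, PRC2 members on the left and PRC1 members on the right. Ezh1, Cbx7 and Bmi1 end above their embryonic values, Ezh2, Suz12, Rnf2, Cbx2 and, by less, Eed end below them, and Jarid2 ends between them.

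In PRC1, Rnf2 (chromosome 1, 151469406 to 151500823, minus strand) led the members at E10.5 and E13.5. Its level was 55.1 FPKM, then 71.4 FPKM, and 13.3 FPKM in the adult library. Its percentile among expressed mRNA loci was 91.3, 92.2 and 68.97 from E10.5 to Adult. Its change was 0.37 between the embryonic libraries and -1.97 from E10.5 to Adult. Its paralog Ring1 was at 4.07, 5.86 and 2.26 FPKM. Rnf2 was thus the major RING ligase transcript at every stage, with 93.1%, 92.4% and 85.4% of the sum of both.

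Bmi1 (chromosome 2, 18677018 to 18686629, plus strand), known for keeping stem cells dividing by silencing the Cdkn2a locus, was at 17.5, 22.4 and 38.8 FPKM. The order of its levels followed age, and in the adult library it was the highest of the 9 members. The change was 0.34, then 0.77, and 1.11 from E10.5 to Adult, where 13.4% of loci had a larger one. Its closest paralog Pcgf2 was at 5.11, 4.44 and 0.704 FPKM, so the ratio of Bmi1 to Pcgf2 was 3.41, 5.04 and 55.02. With 1 FPKM added to both it was 3.02, 4.30 and 23.3, since the adult level of Pcgf2 was under 1 FPKM. Of the summed FPKM of the 6 PCGF genes, Bmi1 held 19.7%, 27.7% and 48.7% from E10.5 to Adult. The sum was 88.7, 80.9 and 79.6 FPKM. The ratio of Rnf2 to Bmi1 was 3.16, 3.19 and 0.343, so their order was exchanged in the adult library.

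Cbx2 (chromosome 11, 119023029 to 119031270, plus strand) and Cbx7 (chromosome 15, 79915807 to 79932646, minus strand) are chromodomain subunits that occupy the same position in canonical PRC1. Cbx2 was at 9.14, 9.61 and 0.685 FPKM, and the adult level was 7.49% of that at E10.5. Cbx7 was at 0.467, 0.312 and 3.35 FPKM. In both embryonic libraries Cbx7 stood low, at percentiles 5.95 and 3.25 of expressed mRNA loci, and in the Adult Cbx2 did, at percentile 8.87. The log2 change from E10.5 to Adult was -2.59 for Cbx2, the largest fall among the members, and 1.57 for Cbx7, their largest rise. In FPKM, Cbx7 was 7.17-fold higher in the Adult than in E10.5.

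The ratio of Cbx2 to Cbx7 was 19.6 (E10.5), 30.7 (E13.5) and 0.204 (Adult). With 1 FPKM added to both, it was 6.91, 8.08 and 0.387, which is on the same side of 1 at each stage but much less extreme. The lowest value, that of Cbx7 at E13.5, corresponds to roughly 23 fragments, that at E10.5 to roughly 18, and the adult value of Cbx2 to roughly 42, so the size of the ratio is imprecise.

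**Figure D2:**
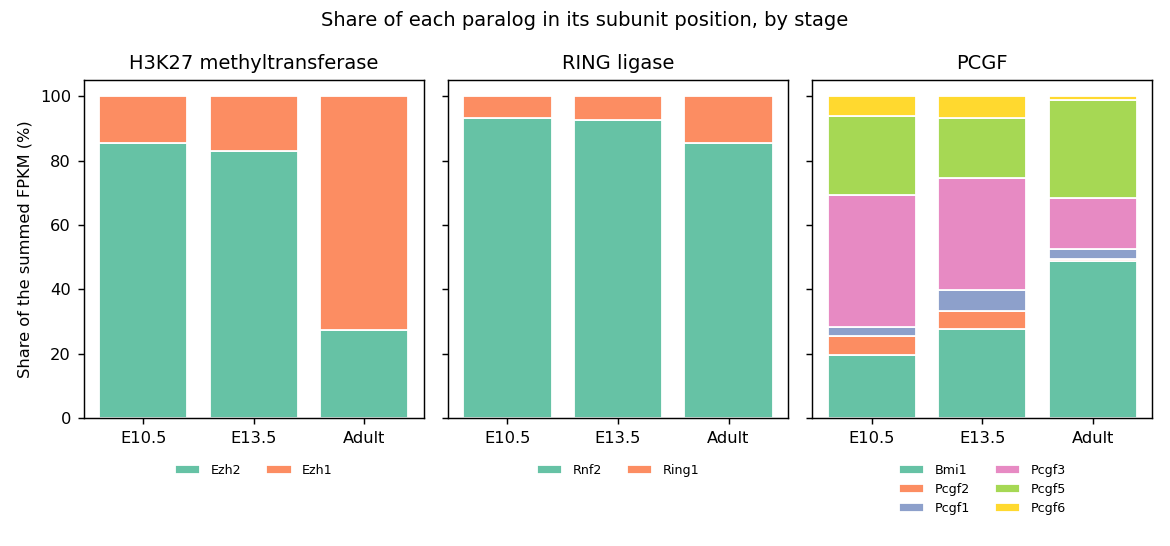
Share of each paralog (percent of the summed FPKM of its subunit position) in the 3 libraries, as stacked bars for the H3K27 methyltransferases, the RING ligases and 6 PCGF genes. Ezh1 goes from 14.7% to 72.7% and Bmi1 from 19.7% to 48.7% between E10.5 and Adult, while Rnf2 holds at least 85.4% at each stage.

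From E10.5 to Adult, 4 of the 9 members were called lower (Cbx2, Ezh2, Rnf2 and Suz12), against 27.3% of all expressed mRNA loci. Called higher were 3 (Cbx7, Ezh1 and Bmi1), against 14.8% of all loci. Eed and Jarid2 were on neither side. The median change of the members was -0.49 and that of all loci was -0.40, and the median size of the change was 1.57 against 0.84. The members therefore did not lie to 1 side of the other genes but on both sides of them. They were chosen with earlier results of these data known, so these shares describe this list only. All 7 calls stayed with each rescaling of the libraries, with a pseudocount of 0.1 and relative to loci of the same length, where 20.8% of all loci were higher and 16.8% lower. With a limit of 2, Cbx2 and Ezh2 remained lower (8.10% of all loci) and no member was higher (5.59%).

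**Figure D3:**
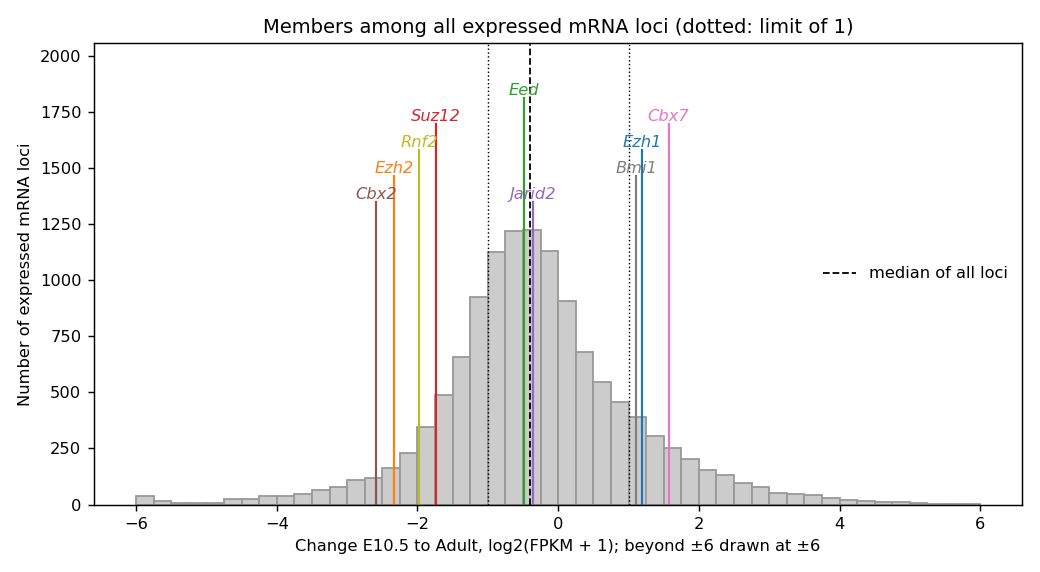
Number of expressed mRNA loci (vertical axis) by the change from E10.5 to Adult in log2(FPKM + 1) (horizontal axis, 12569 loci), with a colored line at the change of each member. Eed and Jarid2 lie at the median of all loci (dashed, -0.40), 4 members lie below -1 and 3 above 1 (dotted).

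From E13.5 to Adult, 4 members were called lower (Cbx2 at -2.65, Rnf2 at -2.34, Ezh2 at -1.99 and Eed at -1.04), against 32.1% of all loci. Called higher were Cbx7 at 1.73 and Ezh1 at 1.29, against 13.0% of all loci. This comparison shares the adult library with the former, so both rest on the same adult values. Eed was no longer called with either rescaling (-0.51 and -0.73), and Bmi1 was then called higher (1.32 and 1.08). With a limit of 2, Cbx2 and Rnf2 were lower (9.88% of all loci) and no member was higher (4.41%). From E10.5 to E13.5 no member was called higher and none lower, where 5.89% and 4.85% of all loci were. Suz12 came closest, and was past the limit with both rescalings (-1.09 and -1.24), as was Jarid2 with 1 of them (-1.10). No change of a member between the embryonic libraries reached 2, where 0.851% of all loci were higher and 0.247% lower. No test across libraries stands behind these counts, since each stage has 1 library.

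The E13.5 library stood apart by transcript length. From E10.5 to E13.5 the median change of expressed mRNA loci ran from 0.54 in the shortest of 10 length groups by RefSeq transcript (292 to 1237 nt) to -0.41 in the longest (7249 nt and more). From E10.5 to Adult the medians of the 10 length groups stayed between -0.43 and -0.35. Suz12 (5209 nt) lay -0.94 from the median of loci of its length, so its lower level at E13.5 was as large against them. Jarid2 (10714 nt) lay -0.41 from them, against a change of -0.82 as deposited, and Ezh2 (2652 nt) lay -0.63 from them. For E13.5 to Adult, against loci of the same length, Eed was at -0.58 and Bmi1 at 1.32, while Ezh2 was at -1.34, Rnf2 at -1.79, Cbx2 at -2.10, Ezh1 at 1.74 and Cbx7 at 2.28. By this measure 3 members were lower and 3 higher, against 17.0% and 20.6% of all loci. Between the embryonic libraries none was past the limit by it, against 4.77% lower and 3.57% higher. The part of length in the single values of E13.5 was not tested.

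**Figure D4:**
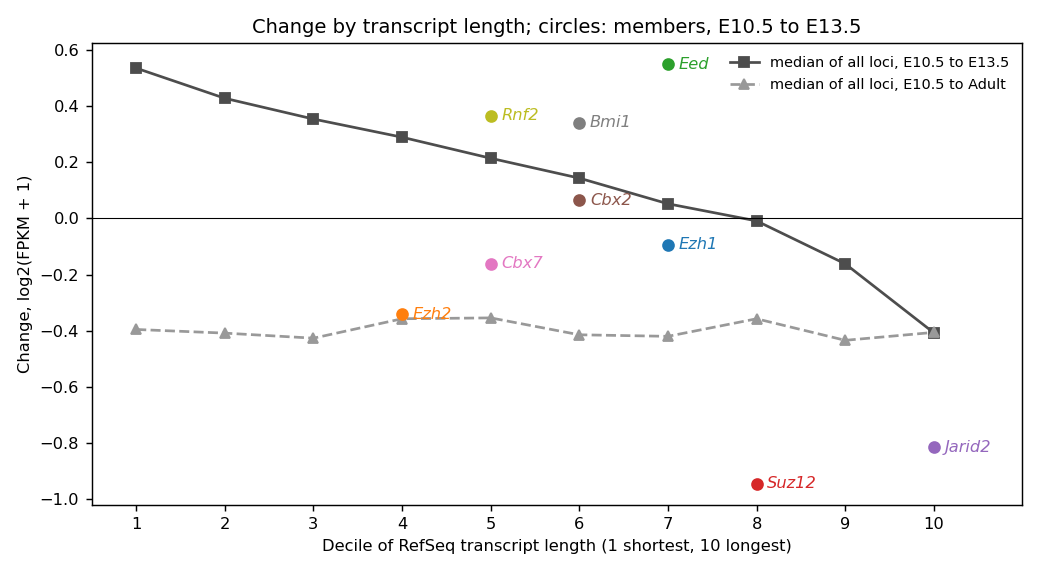
Change in log2(FPKM + 1) by decile of RefSeq transcript length, with the median of all expressed mRNA loci from E10.5 to E13.5 (squares) and from E10.5 to Adult (triangles) and each member's change from E10.5 to E13.5 (circles). The squares go from 0.54 to -0.41 with length while the triangles stay flat, and Suz12 (-0.94), Ezh2 (-0.63) and Jarid2 (-0.41) lie furthest below the square of their decile.

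The lists of other pathway genes held 39 names, and 37 of these passed the filter of 1 FPKM. From E10.5 to Adult, 14 of the 37 were called lower and none higher, with 23 on neither side and a median change of -0.85, against 27.3% of all loci lower, 14.8% higher and a median of -0.40. Relative to loci of the same length, 9 were called lower and none higher, against 16.8% and 20.8% of all loci. Between the embryonic libraries, 4 of the 37 were lower and none higher, against 4.85% and 5.89% of all loci. Relative to loci of the same length these were 3 and none, against 4.77% and 3.57%. From E13.5 to Adult, 14 were lower and Phc3 (1.23) was higher, against 32.1% and 13.0% of all loci. Relative to length, 6 were then lower and 3 higher (Pcgf5 at 1.44, Phc3 at 1.18 and Mbd5 at 1.10), against 17.0% and 20.6%.

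Among the other PRC2 genes, 3 of 7 expressed were called lower from E10.5 to Adult, where 27.3% of all loci were. Relative to loci of the same length the same 3 stayed past the limit, against 16.8% of all loci. Rbbp4, a histone-binding subunit of the core, was at 77.8, 78.1 and 15.2 FPKM, a change of -2.28. Its paralog Rbbp7 was the most abundant gene of the list in all 3 libraries at 154, 183 and 50.4 FPKM, a change of -1.59. Both are also subunits of other chromatin complexes. Mtf2, a Polycomb-like accessory subunit, was at 31.4, 30.1 and 7.34 FPKM, a change of -1.96. Thus Rbbp4, Rbbp7 and Mtf2 were called lower along with Ezh2 and Suz12. Aebp2, a partner of Suz12, had a change of -0.56, and Phf1 had one of 0.39. Epop and Ezhip stayed under 1 FPKM in all 3 libraries.

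Of the 9 other canonical PRC1 genes, 4 were called lower from E10.5 to Adult, where 27.3% of all loci were. They were Pcgf2 (-1.84), Phc2 (-1.44), Phc1 (-1.38) and the locus joining Cbx6 with Npcd and Nptxr (-1.26). Relative to loci of the same length 2 stayed past the limit, against 16.8% of all loci, while Phc1 (-0.96) and the Cbx6 locus (-0.91) did not. Phc genes encode the subunits by which PRC1 forms larger assemblies. Phc2 was the most abundant of the list in both embryonic libraries, at 18.8 and 15.8 FPKM, and had 6.31 FPKM in the Adult. There Phc3 was the highest, at 9.03, 3.38 and 9.25 FPKM from E10.5 to Adult, so it was lowest at E13.5. Phc3 held 25.5% of the summed Phc level at E10.5 and 51.8% in the Adult.

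Of the 13 variant PRC1 genes, 7 were called lower in the same comparison (27.3% of all loci). They were Pcgf6 (-1.75), Pcgf3 (-1.46), Rybp (-1.43), Bcorl1 (-1.42), the locus joining Yaf2 with Gxylt1 (-1.38), Kdm2b (-1.35) and Auts2 (-1.09). Relative to loci of the same length 4 stayed past the limit (16.8% of all loci), while Kdm2b (-0.997), the Yaf2 locus (-0.94) and Auts2 (-0.66) did not. Rybp and Yaf2 take the place of CBX proteins in this form of PRC1, and Kdm2b brings it to unmethylated CpG islands. The Yaf2 locus was the highest of the list in both embryonic libraries, at 45.8 and 38.6 FPKM. In the Adult the highest was Pcgf5, at 21.7, 15.2 and 24.2 FPKM, followed by E2f6, which was at 20.3, 20.2 and 20.01 FPKM.

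None of the 6 genes of the Polycomb deubiquitinase (PR-DUB), which removes the mark of PRC1, was called in either direction from E10.5 to Adult. Of all loci, 27.3% were lower and 14.8% higher, so a list this short says little about stability. The highest in each library was Bap1 at 17.5, 25.1 and 11.03 FPKM. From E13.5 to Adult, Bap1 was called lower (-1.12), where 32.1% of all loci were. Relative to its length group it was not (-0.89), where 17.0% of all loci were. The H3K27 demethylases Kdm6a and Kdm6b, which remove the mark of PRC2, changed by -0.85 and -0.71 from E10.5 to Adult. Neither was called, and the same limit holds for them. Kdm6a was at 14.6, 8.62 and 7.64 FPKM, so its ratio to Ezh2 was 0.567, 0.429 and 1.77.

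**Figure D5:**
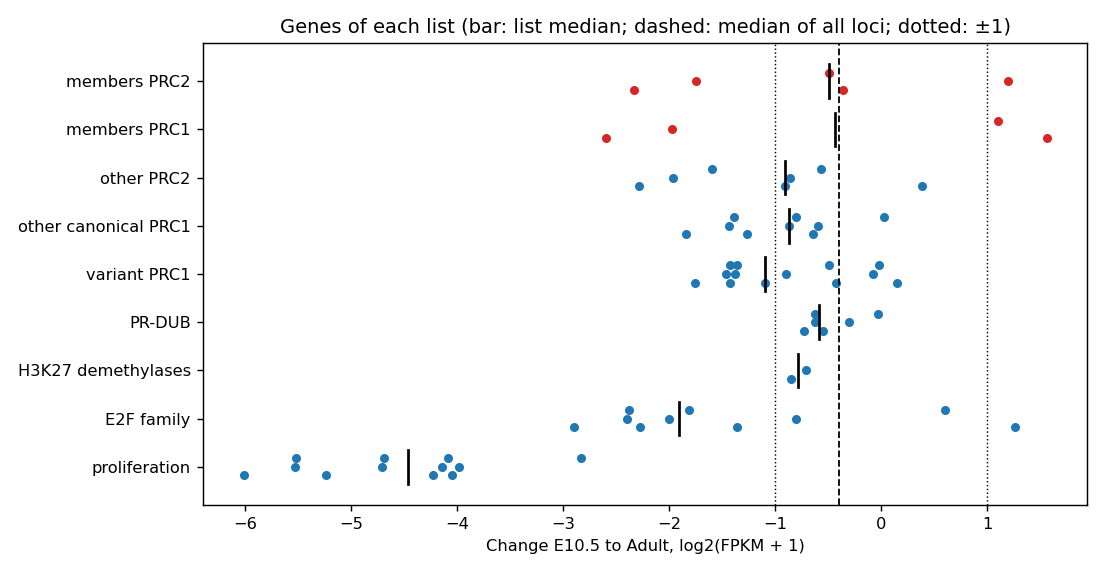
Change from E10.5 to Adult in log2(FPKM + 1) for each expressed gene of the lists, with members in red, other genes in blue and a bar at each list's median. The 3 members above 1 have no counterpart in the 5 lists of other Polycomb-related genes, while 1 gene of the E2F family list (Rbl2, 1.27) lies there and all 12 proliferation genes lie below -2.

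Genes that PRC2 is known to silence were mostly near the lower end of what these libraries can show. Of 15 such developmental and cell cycle regulators, 2 reached 1 FPKM in any library. Isl1, a factor of heart progenitors, was at 0.291, 3.76 and 0.0441 FPKM, and Cdkn2b, an inhibitor of the cell cycle, at 0.2999, 1.31 and 0.145 FPKM. Both were highest at E13.5, and Isl1 was past the limit between the embryonic libraries (1.88), where 5.89% of all loci were higher. From E13.5 to Adult both were called lower (Isl1 at -2.19, Cdkn2b at -1.01), where 32.1% of all loci were. Relative to loci of the same length, Isl1 was at 1.59 and -1.54 in these steps, against 3.57% of all loci higher and 17.0% lower. Cdkn2b was at 0.40 and -0.21 by this measure, within the limit. Of the others, Cdkn2a was listed at 0 in E10.5 and at 0.153 and 0.0736 FPKM in E13.5 and Adult. At this depth no difference can be read from the values of the 13 regulators under 1 FPKM.

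Ezh2 is known to be transcribed with the genes of the cell cycle, so these are given beside it. All 12 proliferation genes (Mki67, Top2a, Ccnb1, Ccna2, Cdk1, Aurkb, Plk1, Bub1, Mcm2, Mcm5, Pcna and Rrm2) were called lower from E10.5 to Adult, against 27.3% of all loci. Their median level was 55.9, 59.3 and 0.709 FPKM and their median change was -4.46. The largest fall was that of Ccna2 (-6.01) and the smallest that of Pcna (-2.83). The fall of Ezh2 (-2.33) was thus smaller than that of any gene of this list, and the part of these genes' cells in it was not tested. Of the E2F family list, 7 of 10 were called lower and 1 higher, against 27.3% and 14.8% of all loci. E2f8 (-2.90), E2f1 (-2.39), E2f7 (-2.38), Rbl1 (-2.28), E2f5 (-2.00), E2f3 (-1.81) and E2f2 (-1.36) were lower, and Rbl2, a pocket protein of resting cells, was at 5.02, 7.31 and 13.47 FPKM (1.27). The highest of this list at E10.5 and E13.5 was Rbl1, at 15.05 and 14.97 FPKM. Relative to loci of the same length, 7 of this list were lower from E10.5 to Adult and 2 higher (Rbl2 at 1.70 and Rb1 at 1.01). The shares of all loci were 16.8% and 20.8%. Rb1 was also called higher from E13.5 to Adult (1.19), where 13.0% of all loci were.

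Levels of cell type markers also differed between the libraries. All 6 cardiomyocyte markers were present at every stage (18.8 FPKM or more), and 3 of them were called higher from E10.5 to Adult. From E10.5 to Adult the sums of marker lists went from 36.0 to 323 FPKM for the 5 macrophage genes (5 of 5 higher), from 19.6 to 290 for the 4 smooth muscle and pericyte genes (3 of 4 higher), from 191 to 207 for the 4 endothelial genes (0 of 4 called), from 121 to 413 for the 5 fibroblast genes (1 higher, 1 lower) and from 4410 to 25.005 for the 5 erythroid genes (4 of 5 lower). The fibroblast sum rests on Dcn (49.5 to 351 FPKM), with a list median of 18.3 and 16.2 FPKM, and the erythroid sum at E10.5 on Hbb-y (4356 FPKM), with a list median of 18.2 and 1.87 FPKM. Their part in the levels of the members was not tested. In bulk tissue, fewer cells that carry a transcript and less of it per cell cannot be told apart.

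The loci whose 3 values were most like those of Ezh2, by the distance of log2(FPKM + 1) after removing each gene's mean, were Efcab1, Cbx5 and Olfml2b. Cbx5, which encodes the heterochromatin protein HP1 alpha, was at 136, 109 and 25.7 FPKM. Efcab1 was at 4.12, 3.14 and 0.0468 FPKM. Those most like Ezh1 were Dmkn, Star and LOC100038947, all under 2.1 FPKM in each library. The 1 FPKM added before the log shrinks the changes of such low genes. Efcab1 and the 3 loci near Ezh1 are thus near on this scale only. Their folds in FPKM from E10.5 to Adult were larger than those of Ezh2 and Ezh1. With 3 libraries many genes share a course. Of 12238 single-gene loci, 548 lay within 0.5 of Ezh2 and 1000 within 0.5 of Ezh1, so these neighbors are a description only.

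The study asked which genes of the heart have a transcript starting from the same promoter in the opposite direction. Within 3000 bp of the RefSeq start sites of the 9 members, 1 locus started on the opposite strand. It belonged to Eed (chromosome 7, 89980750 to 89981762, plus strand, 1 exon of 1013 nt) and started inside the Eed transcript, 440 bp from its 5′ end. It was at 0.298, 0.579 and 0.279 FPKM, which is between 2.25% and 3.04% of Eed. No spliced locus on the opposite strand had its outer 5′ end within this distance of any member's start.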

How the data were processed

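Total RNA of heart ventricle was sequenced at E10.5, E13.5 and 8 weeks, with 1 library per stage. Alignment (TopHat2, genome mm10) and assembly (Cufflinks) were done by the authors, who deposited FPKM values per merged locus and the exons of the merged transcripts, whose coordinates are those of GRCm38. The submitters' processing notes also name Bowtie. Versions and options are not given in the sources used here. Read counts were not used here. Taking the most frequent low value of unspliced loci as 1 fragment, 1 FPKM over 1 kb is about 13.6, 25.8 and 16.3 fragments (13.8, 26.7 and 13.8 with a coarser reading) for E10.5, E13.5 and Adult, so fragment numbers are approximate and no interval is given.

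A member was the sense locus with a transcript matching its RefSeq mRNA. Of 12 loci carrying a member's name, 3 were antisense and kept apart. Changes were differences of log2(FPKM + 1), called at 1 in size, over mRNA loci at 1 FPKM or more in any library. Libraries were also rescaled by median-of-ratios factors (1.06, 1.18 and 0.797) or to equal sums without globin and mitochondrial loci (0.934, 1.16 and 0.923). Length groups are 10 equal groups of these loci by longest RefSeq transcript, a choice made after seeing the data. The counting was tested on simulated data. Genes outside the members were named when past the limit from E10.5 to Adult or highest of their list, and the 3 loci nearest in profile were named for Ezh2 and Ezh1. Aebp2, Phf1, Phc3, Mbd5, Dcn, Hbb-y, Isl1, Cdkn2b, Cdkn2a, E2f6, Epop and Ezhip were picked for naming after their values were seen, as were Ring1, Kdm6a, Rb1, Lyz2, Rgs5 and Alas2. Epop, Ezhip and Adgre1 were matched by older symbols. Some listed genes are not reported here. The members and lists were chosen with earlier results of these data known. Calculations used Python 3.11.15, numpy 2.4.6 and pandas 2.3.3. Promoter sequences are from RefSeq on GRCm38.p6.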

Additional observations from a re-analysis of the deposited data

Results flagged for a closer look

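Antisense loci carrying the name of a member lay outside the main measurement and were above 3 fragments at the estimated depth, which is why they are given here. That of Cbx7 (chromosome 15, 79913169 to 79917242, plus strand, 1 exon of 4074 nt) was at 0.315, 0.0761 and 1.00 FPKM (0.999815 before rounding) in E10.5, E13.5 and Adult. It was highest in the library where Cbx7 itself was highest and reached 67.4%, 24.3% and 29.8% of the sense level. That of Ezh2 (chromosome 6, 47530143 to 47531452, plus strand, 1 exon of 1310 nt) was at 0.514, 0.240 and 0.773 FPKM, so it was highest in the library where Ezh2 was lowest. That of Eed was highest at E13.5 with 0.579 FPKM, like Eed itself. The largest of these values rests on roughly 67 fragments (Cbx7, Adult), and the others on 17 or fewer.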

How the results depend on the processing

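Each value rests on 1 library, so neither a test nor leaving out a library was possible. No paired analysis was possible because replicates are missing at every stage. The comparison by length was chosen after seeing the data, and the other alternatives were listed earlier. A value was taken as moved when it changed by more than 1.5-fold. Of the 27 member changes recalculated 108 times, 5 moved, none of those past the limit changed sign, 3 lost the limit (Eed from E13.5 to Adult) and 6 gained it (Suz12, Jarid2 and Bmi1). Jarid2 from E10.5 to Adult (0.03 with median-of-ratios scaling) and Cbx2 from E10.5 to E13.5 changed sign at small size. With a limit of 2, 0 members were higher in either comparison with the Adult, and 2 were lower in each (Cbx2 and Ezh2 from E10.5, Cbx2 and Rnf2 from E13.5). For loci at 5 FPKM or more, which leaves out Cbx7, 1 member was higher from E13.5 to Adult. From E10.5 to E13.5, 1 member was lower with median-of-ratios scaling and 2 with equal sums.

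Counts over all mRNA loci moved as follows. From E10.5 to E13.5, 740 were higher and 609 lower as reported, against 1276 and 948 with a pseudocount of 0.1, 107 and 31 with a limit of 2, 422 and 1086 with equal sums, and 449 higher relative to length. From E13.5 to Adult, 1637 were higher and 4029 lower, against 2623 and 2385 with median-of-ratios scaling, 2589 and 2135 relative to length, and 554 and 1242 with a limit of 2. From E10.5 to Adult, 1856 were higher and 3430 lower, against 703 and 1018 with a limit of 2, and 2107 lower relative to length. The ratio of Ezh2 to Ezh1 did not move past 1.5-fold with 0.1 or 1 FPKM added, and that of Cbx2 to Cbx7 moved with 1 added, to 6.91, 8.08 and 0.387.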
